A study of Mus musculus with 6 samples.

Results

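The 10 neuropeptide genes described here were Gal, Adcyap1, Vip, Npy, Tac1, Sst, Cck, Crh, Penk and Cartpt, picked by symbol from the 35485 genes of the deposited retina tables. Each was listed once in every table, all 10 passed the filter on low values, and every exon read counted on them was uniquely mapped. Whole retinas were compared by RNA-seq between 3 samples from eyes whose optic nerve had been crushed (ONC) and 3 samples from eyes whose nerve had been exposed but not crushed (sham). All mice were wild type C57BL/6 animals at 12 weeks of age. The crush, labelled NC, lasted 10 seconds and was placed 2 mm behind the globe, and retinas were taken on the second day after surgery. Each sample held pooled RNA from 6 retinas, so differences between samples of a group are those of pools of animals. The crushed axons are those of the retinal ganglion cells, whose cell bodies lie in the retina. The whole retina also holds photoreceptors, bipolar, horizontal and amacrine cells and glia, so a value per gene is a mean over all of these cells.

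A neuropeptide gene encodes a precursor protein that is cut into short active peptides inside dense core vesicles, which are released on strong stimulation. Most of these peptides act on G protein-coupled receptors of nearby cells. In the retina they are classically found in subsets of amacrine cells, and a few occur in ganglion cells. Galanin, from Gal, and pituitary adenylate cyclase-activating polypeptide (PACAP), from Adcyap1, are known as peptides that injured peripheral neurons make in larger amounts.

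The 10 genes were chosen with the difference between ONC and sham in these samples already known. Their values are therefore a description, without p-values, and nothing is supported by how many of them differed. The level of a gene is given as total exon reads and as RPKM, which scales exon reads by the exon length in kilobases and by all reads on genes. RPKM was used wherever levels of different genes are set side by side. Differences are log2 fold changes of ONC over sham with their standard error (SE), fitted by edgeR to the exon reads of the 13670 genes whose RPKM averaged over 0.3 in sham, ONC or both. A gene was called when its Benjamini-Hochberg adjusted p (FDR) was under 0.1 and its fold change was above 1.5 in either direction.

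The sham libraries held 17343945 to 18349331 exon reads and the ONC libraries 20019818 to 20358008. Of all genes tested, 227 were called, which is 1.66%, with 113 higher in ONC (0.827%) and 114 lower (0.834%). The ganglion cell markers had a summed RPKM of 399 to 417 in sham and 295 to 306 in ONC, and 6 of 10 were called lower. Their median log2 fold change was -0.77. Slc17a6, the 1 marker of the 10 that was higher, was at 0.26 (SE 0.07, adjusted p = 0.0525, edgeR), under the FDR but not over the fold threshold. In a whole tissue, fewer cells of a type and less RNA per cell cannot be told apart. None of the 9 amacrine markers tested was called by edgeR, DESeq2 or limma, with 0 at an unadjusted p under 0.05, and their summed RPKM was 218 to 253 in sham and 241 to 271 in ONC. Of 6 microglia markers, 2 were called higher by edgeR (Itgam and C1qa), while DESeq2 called 1, limma called 0 with a pseudocount of 0.1 and 2 with 1, and C1qa lay just past the fold threshold, at a log2 fold change of 0.59 (SE 0.19). Their sum was 9.67 to 12.7 in sham and 17.9 to 20.5 in ONC. The 5 lens markers summed to 41.5, 5.97 and 8.90 RPKM in sham replicates 1, 2 and 3 and to 42.4 to 53.4 in ONC, so that sham replicate 1 lay close to the ONC samples. All 5 had a log2 fold change above 0, with a median of 1.27, 4 had an unadjusted p under 0.05, and 1 was called higher by edgeR (Cryaa, 1.32, SE 0.36, adjusted p = 0.0469) and none by DESeq2 or limma. The part of these other cells in the differences given for the peptide genes was not tested.

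Of the 10 genes, 4 were called higher in ONC (Gal, Crh, Adcyap1 and Tac1), 1 was called lower (Sst) and 5 were not called (Penk, Npy, Cartpt, Vip and Cck). That is 50.0% of the 10, beside 1.66% of all genes tested, and it follows from how they were picked. By RPKM, 6 genes had all ONC samples above all sham samples, 1 had all ONC samples below, and 3 overlapped. Among all genes tested 25.4% and 3.45% were separated in these directions. After TMM normalization the numbers were 5, 1 and 4, beside 11% and 10.8% of all genes, and Npy was the gene that then overlapped. This is because RPKM divides by intron reads too, and its scaling raised the median log2 fold change of all genes from 0.0099 to 0.13. Exon reads were 70.9% to 76.6% of all reads on genes in sham and 78.5% to 80.4% in ONC. The median log2 fold change of the 10 genes was 0.55 after TMM normalization.

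**Figure D1:**
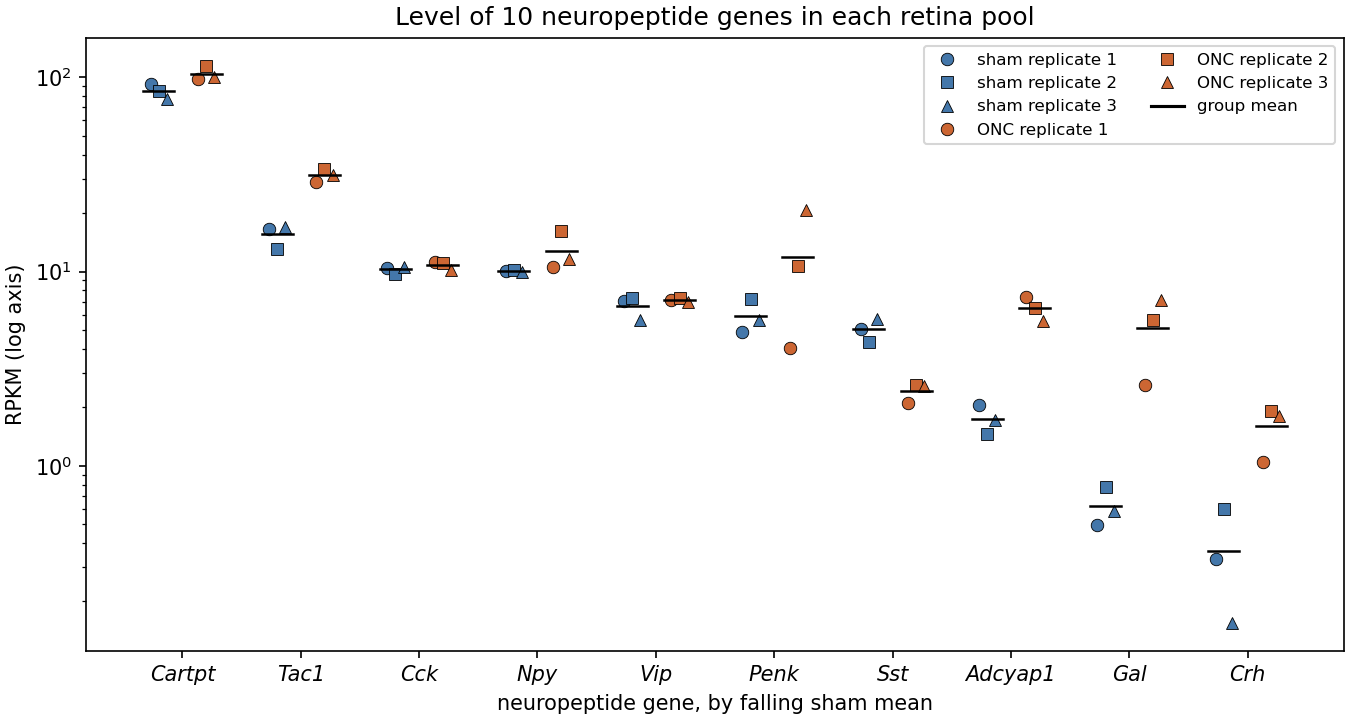
RPKM of each of the 10 neuropeptide genes on a log axis, with a point for every sham and ONC sample and a bar at the group mean. Gal, Adcyap1, Crh, Tac1, Npy and Cartpt have every ONC point above every sham point, as had 25.4% of all genes tested. Npy overlapped after TMM normalization. Sst has every ONC point below, while the Penk points of ONC spread from 4.06 to 20.8.

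Sst, Vip and other peptide genes are classic genes of the pathway of the CREB family factors, which bind the cAMP response element (CRE). The first promoter sequences shown are therefore those with this site or a part of it. They come from RefSeq on GRCm38.p6, whose windows of 250 bases before the start were searched on both strands in the 8 genes with an entry (Gal, Adcyap1, Vip, Npy, Tac1, Sst, Cck and Cartpt). Capitals mark the full CRE or, where that is missing, its 5-base core TGACG or the reverse complement of it. Each stretch is 60 bases long on the strand of the gene, and for Adcyap1, which has 2 starts in RefSeq, it is that before the first.
Sst, chr16:23890859-23890918, minus strand: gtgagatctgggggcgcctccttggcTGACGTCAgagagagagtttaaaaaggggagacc
Cartpt, chr13:99900762-99900821, minus strand: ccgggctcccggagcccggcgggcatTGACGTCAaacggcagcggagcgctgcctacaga
Vip, chr10:5639113-5639172, plus strand: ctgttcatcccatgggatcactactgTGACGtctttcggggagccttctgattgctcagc
Adcyap1, chr17:93198900-93198959, plus strand: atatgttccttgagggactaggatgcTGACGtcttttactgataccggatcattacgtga
Tac1, chr6:7554992-7555051, plus strand: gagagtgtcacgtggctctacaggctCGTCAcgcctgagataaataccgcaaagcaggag
Cck, chr9:121495708-121495767, minus strand: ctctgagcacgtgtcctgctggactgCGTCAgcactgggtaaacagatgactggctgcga

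The full CRE (TGACGTCA) stood in 2 of the 8 promoters, those of Sst and Cartpt, against 1.55% of all 32851 promoters. The core TGACG, which is part of the full site, stood in 6 of the 8 promoters against 17.8% of all. Of the genes with the full site, Sst was called lower in ONC and Cartpt was not called. Among the genes with only the core, Adcyap1 and Tac1 were called higher while Vip and Cck were not called. The longest run shared by the stretches of Vip and Adcyap1 was TGACGTCTTT, of 10 bases, which stood in 0.0609% of all promoters. Both stretches were cut around TGACG, so this part of the run was shared by how they were chosen. Nothing is drawn from the shared run. A match of letters is a description and not a bound site, and no binding was measured.

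The whole upstream window of Gal is shown because it was the gene with the largest difference of the 10 and held no CRE letters. Capitals mark the GC box GGGCGG, the binding site of Sp family factors.
Gal, chr19:3414545-3414794, minus strand: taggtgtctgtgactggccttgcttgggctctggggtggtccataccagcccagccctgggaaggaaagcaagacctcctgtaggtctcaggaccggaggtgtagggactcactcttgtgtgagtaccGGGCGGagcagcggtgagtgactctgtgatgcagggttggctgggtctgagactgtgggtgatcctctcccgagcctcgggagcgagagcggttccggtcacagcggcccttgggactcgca
The GC box stood in 4 of the 8 promoters (Gal, Npy, Tac1 and Cartpt), against 32.7% of all promoters. The AP-1 site (TGANTCA, in 6.75% of all promoters) and the C/EBP-ATF site (TGATGNAA, in 3.45%) stood in none of the 8 windows. The letters TATAAA stood in 2 of the 8 genes, Vip and Adcyap1, against 12.4% of all promoters. In Adcyap1 they stood only before the second start, whose sequence is not shown. A window without these letters tells nothing of sites elsewhere in the gene.

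**Figure D2:**
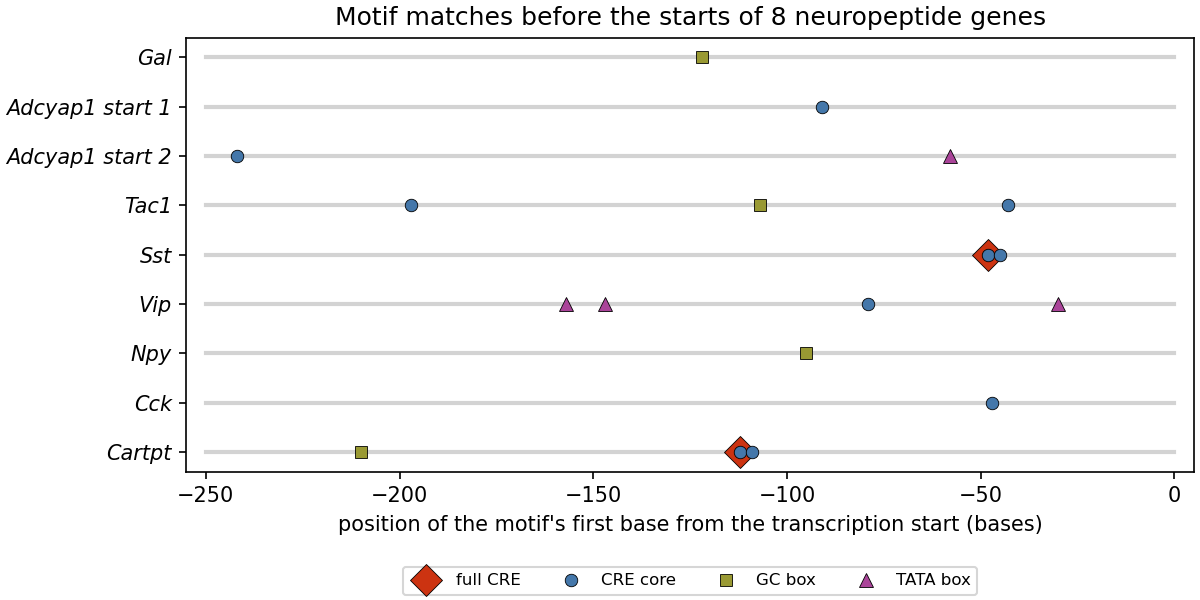
Position of each motif match in the 250 bases before the start of the 8 genes with a promoter entry, by the first base of the match, with a symbol for each motif and 1 line per RefSeq start (2 for Adcyap1). Full CRE matches appear only for Sst and Cartpt, and Gal and Npy have a GC box and no other match.

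Galanin is a peptide that is mostly inhibitory in nerve tissue and is known for its appearance in neurons whose axon has been cut. Gal lies on chromosome 19 from 3409917 to 3414457 and has 699 bases of exon, all gene positions being those of the tables, which fit the GRCm38 build. In sham it had 8, 13 and 10 exon reads and in ONC 46, 98 and 130, here and in the following always given in the order of replicates 1, 2 and 3. The RPKM was 0.498, 0.776 and 0.584 in sham and 2.60, 5.63 and 7.17 in ONC. The lowest ONC sample, replicate 1, thus had over 3 times the RPKM of the highest sham sample, and the groups were far apart. The mean RPKM was 0.619 ± 0.142 (SD, n = 3) in sham and 5.13 ± 2.33 (SD, n = 3) in ONC, and the fitted log2 fold change was 2.91 (SE 0.42), or 7.51-fold. This placed Gal at rank 10 of the 113 genes called higher. Reads across exon junctions, which come from spliced RNA, numbered 6, 7 and 9 in sham and 41, 76 and 103 in ONC, while no sample had more than 3 intron reads. Gal passed both thresholds in all 15 alternative fits. Its log2 fold change was 2.58 to 3.22 when single samples were left out and 1.84 with limma on log2(RPKM + 1).

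PACAP is a peptide of the secretin family that raises cAMP in its target cells and is known to protect neurons. In the retina it is found in the ganglion cells that contain melanopsin, the photopigment encoded by Opn4. Adcyap1, on chromosome 17 from 93199422 to 93205491 with 2094 bases of exon, had 99, 73 and 88 exon reads in sham and 390, 339 and 303 in ONC. The RPKM was 2.06, 1.46 and 1.72 in sham and 7.36, 6.51 and 5.58 in ONC. The groups were well separated, and ONC replicate 1, the lowest ONC sample for Gal, was the highest for Adcyap1. The mean RPKM was 1.74 ± 0.301 (SD, n = 3) in sham and 6.48 ± 0.891 (SD, n = 3) in ONC, with a log2 fold change of 1.77 (SE 0.17), or 3.42-fold. Intron reads, as counts not scaled to the library, were also higher, at 0, 4 and 1 in sham and 23, 8 and 12 in ONC. Adcyap1 ranked 29 among the genes called higher and passed both thresholds in all 15 alternatives. Its log2 fold change was 1.64 to 1.88 without single samples and 1.45 with limma on log2(RPKM + 1).

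Opn4 moved the other way. Its exon reads numbered 103, 179 and 115 in sham and 95, 88 and 83 in ONC, so that sham replicate 2 stood above the rest. The log2 fold change of Opn4 was -0.78 (SE 0.23, adjusted p = 0.0626 by edgeR's quasi-likelihood test), and 10 of the 16 fits called it. Which cells held the Adcyap1 transcripts was not measured.

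Corticotropin-releasing hormone, encoded by Crh, starts the stress hormone cascade in the hypothalamus and occurs in a small set of amacrine cells. Crh lies on chromosome 3 from 19693401 to 19695396, with 1320 bases of exon, and was the lowest of the 10 genes in both groups. Its exon reads numbered 10, 19 and 5 in sham and 35, 63 and 62 in ONC, and its RPKM 0.330, 0.601 and 0.155 in sham and 1.05, 1.92 and 1.81 in ONC. The groups did not overlap, but as a ratio ONC replicate 1 lay closer to sham replicate 2 than sham replicates 2 and 3 lay to each other. The mean RPKM was 0.362 ± 0.225 (SD, n = 3) in sham and 1.59 ± 0.474 (SD, n = 3) in ONC, with a log2 fold change of 2.01 (SE 0.48), or 4.04-fold. Crh was called in 11 of 15 alternatives, whose lowest log2 fold change was 0.92. It missed the thresholds with limma at a pseudocount of 0.1 and without sham replicate 3 (1.68), ONC replicate 2 (1.87) or ONC replicate 3 (1.90).

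Tac1 encodes the precursor of substance P and neurokinin A, tachykinins that mostly excite their target neurons and are made by amacrine cells. It lies on chromosome 6 from 7555071 to 7562973, with 1034 bases of exon. Exon reads numbered 394, 325 and 427 in sham and 757, 865 and 844 in ONC. The RPKM was 16.6, 13.1 and 16.9 in sham and 28.9, 33.6 and 31.5 in ONC, so both groups were tight and clearly separated. The mean RPKM was 15.5 ± 2.09 (SD, n = 3) in sham and 31.3 ± 2.35 (SD, n = 3) in ONC, with a log2 fold change of 0.89 (SE 0.12), or 1.85-fold. In RPKM this was the largest difference between group means among the genes called higher of the 10. Intron reads, again not scaled, were higher too, at 7, 4 and 11 in sham and 32, 33 and 45 in ONC. All 15 alternatives called Tac1, and it ranked 70 among the genes called higher.

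Somatostatin, encoded by Sst, inhibits hormone and transmitter release and is made by wide-field amacrine cells of the retina. Sst was the gene called lower. It lies on chromosome 16 from 23889581 to 23890844, with 599 bases of exon. Exon reads numbered 70, 62 and 84 in sham and 32, 39 and 40 in ONC, and the RPKM 5.08, 4.32 and 5.73 in sham and 2.11, 2.62 and 2.57 in ONC. The highest ONC value was thus under the lowest sham value. The mean RPKM was 5.04 ± 0.705 (SD, n = 3) in sham and 2.43 ± 0.280 (SD, n = 3) in ONC, with a log2 fold change of -1.18 (SE 0.30), or 2.26-fold lower, at rank 30 of the 114 genes called lower. No intron reads were counted on Sst in any sample. It was called in 13 of 15 alternatives and missed the thresholds without sham replicate 3 (-1.03) or ONC replicate 3 (-1.23).

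Penk encodes the precursor of the enkephalins, peptides that act on opioid receptors and occur in amacrine cells. It lies on chromosome 4 from 4133536 to 4138445, with 1412 bases of exon. Exon reads numbered 158, 243 and 195 in sham and 145, 375 and 763 in ONC. The RPKM was 4.87, 7.18 and 5.64 in sham and 4.06, 10.7 and 20.8 in ONC. ONC replicate 1 was the lowest of all samples and ONC replicate 3 the highest, so the ONC pools differed more among themselves than the group means did. The mean RPKM was 5.90 ± 1.18 (SD, n = 3) in sham and 11.9 ± 8.45 (SD, n = 3) in ONC, and the log2 fold change of 0.88 (SE 0.33) did not pass the thresholds. It was 0.18 without ONC replicate 3 and 1.28 without ONC replicate 1. Penk was called in 3 of 15 alternatives, namely scaling by all reads on genes, no filter on RPKM, and the fit without ONC replicate 1.

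The other genes were not called in the fit of all samples. Cartpt encodes the precursor of CART peptides, which in the mouse retina mark a type of direction-selective ganglion cell and some amacrine cells. On chromosome 13 from 99898484 to 99900683, it had an RPKM of 92.6, 84.6 and 77.6 in sham and 98.5, 115 and 100.3 in ONC. All ONC values were above all sham values, at 84.9 ± 7.49 (SD, n = 3) against 104.6 ± 8.97 (SD, n = 3), but the log2 fold change was only 0.18 (SE 0.07) and was not called. Npy encodes neuropeptide Y, a widespread inhibitory peptide of amacrine cells. It had an RPKM of 10.1, 10.2 and 9.93 in sham and 10.5, 16.1 and 11.6 in ONC, with ONC replicate 2 highest. Its log2 fold change was 0.21 (SE 0.18), and 0.031 without ONC replicate 2.

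Vip encodes vasoactive intestinal peptide, a relative of PACAP made by amacrine cells. Its RPKM was 7.06, 7.30 and 5.65 in sham and 7.14, 7.34 and 6.97 in ONC, and its log2 fold change was -0.017 (SE 0.13). The groups overlapped. Cck encodes cholecystokinin, a gut and brain peptide. Its RPKM was 10.5, 9.74 and 10.5 in sham and 11.2, 11.1 and 10.2 in ONC, with a log2 fold change of -0.043 (SE 0.16). For neither gene did the ONC samples stand apart, and both signs turned with the scaling of RPKM, to 0.10 for Vip and 0.081 for Cck. Every library held at least 160 reads of Cck and 211 of Vip.

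**Figure D3:**
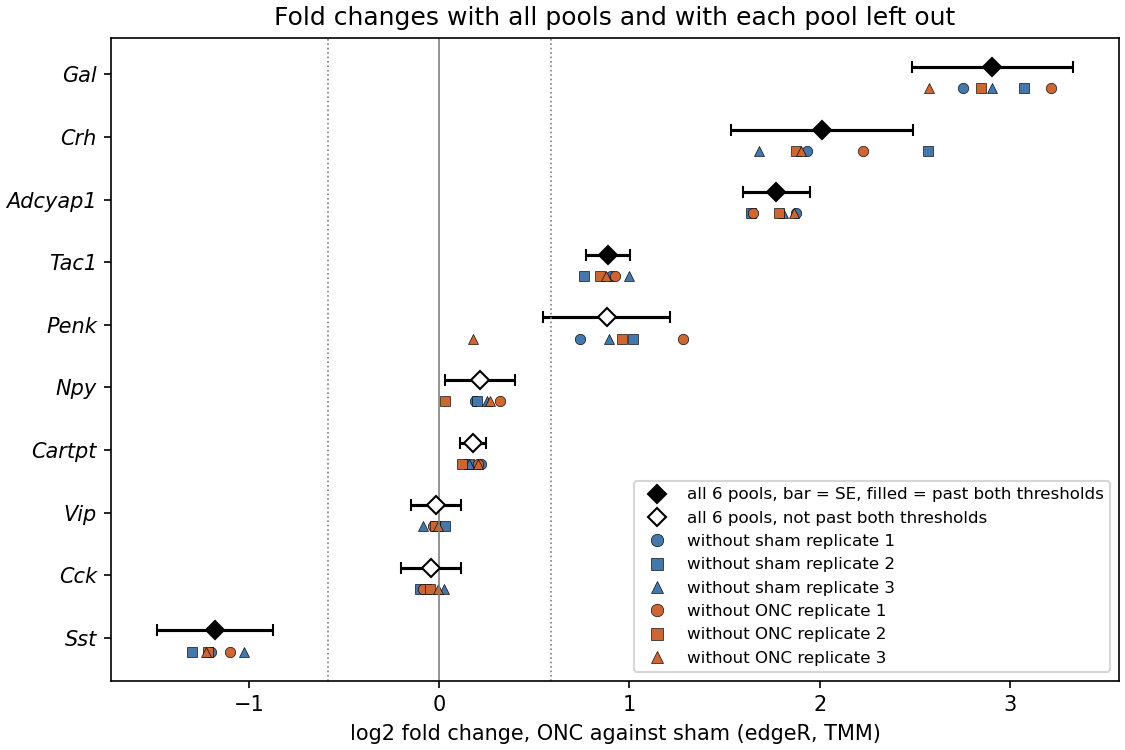
Log2 fold change of ONC over sham for the 10 neuropeptide genes, as diamonds with bars of 1 SE on either side, filled where both thresholds were passed. Smaller symbols under each give the value with 1 sample left out, and dotted lines the fold change threshold. Gal is highest at 2.91 and Sst lowest at -1.18, and Penk lies beside Tac1 but drops to 0.18 without ONC replicate 3.

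Ordered by RPKM, the sham retinas expressed Cartpt most, then Tac1, Cck, Npy, Vip, Penk, Sst, Adcyap1, Gal and Crh. Cck and Npy overlapped in their sham samples, as did Vip, Penk and Sst, and Gal and Crh, and the other neighbours did not. In ONC the order was Cartpt, Tac1, Npy, Penk, Cck, Vip, Adcyap1, Gal, Sst and Crh. There Npy, Penk and Cck overlapped from neighbour to neighbour, and so did Vip, Adcyap1, Gal and Sst. Gal overlapped Crh in sham and Adcyap1 in ONC, and Sst, above Adcyap1 and Gal in sham, had a lower mean than either in ONC. Cartpt alone held 60.1% ± 2.15 (SD, n = 3) of the summed RPKM of the 10 genes in sham and 54.0% ± 3.18 (SD, n = 3) in ONC. The share of Tac1 was 11.02% ± 1.57 (SD, n = 3) in sham and 16.2% ± 0.447 (SD, n = 3) in ONC.

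The receptors of these peptides, with the binding protein gene Crhbp, were taken from a list made by function and with earlier results of these samples known, and 28 of them were in the tables. Of these, 13 passed the filter on low values, and 3 had an unadjusted edgeR p under 0.05, a share not given for all genes. None of the 13 was called by edgeR's quasi-likelihood test, beside 1.66% of all genes tested, and none by DESeq2 or limma. A list this short can lack called genes at that share, so their absence says little of the 13 genes. Their median log2 fold change was -0.15, beside 0.0099 over all genes tested. Tacr3, the neurokinin B receptor, was at 5.86 ± 0.971 RPKM (SD, n = 3) in sham and 5.76 ± 0.852 (SD, n = 3) in ONC. Vipr2, a receptor for both VIP and PACAP, was at 10.3 ± 1.97 (SD, n = 3) and 9.10 ± 0.299 (SD, n = 3), with a log2 fold change of -0.29 (SE 0.10, adjusted p = 0.131, edgeR). The PACAP receptor Adcyap1r1 was at 0.997 ± 0.222 (SD, n = 3) and 1.0 ± 0.0698 (SD, n = 3). Its log2 fold change was -0.12 (SE 0.19), with an approximate 95% interval from -0.49 to 0.25, so a change of the size seen for Adcyap1 itself lay outside it.

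The largest log2 fold change among the receptors tested was that of Sstr3, a somatostatin receptor, at 0.89 (SE 0.39, adjusted p = 0.25, edgeR), from 19, 25 and 27 exon reads in sham and 66, 36 and 51 in ONC. The other somatostatin receptors tested, Sstr1 and Sstr2, had log2 fold changes of -0.33 (SE 0.39) and -0.48 (SE 0.46). Crhbp, the binding protein that holds Crh peptide away from its receptors, had 107, 102 and 152 exon reads in sham and 131, 192 and 303 in ONC. Its log2 fold change was 0.57 (SE 0.24, adjusted p = 0.239, edgeR), and it was called with scaling by all reads on genes (0.70) and without ONC replicate 1 (0.80). The Crh receptors Crhr1 and Crhr2 were at -0.15 (SE 0.18) and -0.23 (SE 0.44). Tacr1, Npy1r, Cckbr and the opioid growth factor receptor gene Ogfr lay between -0.22 and 0.13.

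The other 15 genes of the list were below the filter. The galanin receptors Galr1, Galr2 and Galr3 were all among them, with at most 2, 19 and 0 exon reads in any sample, and so were the classical opioid receptors Oprd1, Oprm1 and Oprk1 with at most 5, 20 and 12. In the fit without the filter, 14 of the 15 could be tested. None was called by edgeR, beside 297 of the 17655 genes with an exon read. Of the 14, 1 (Oprd1) had an unadjusted edgeR p under 0.05. Vipr1, a receptor for VIP and PACAP that was named after its values were seen, had 4, 7 and 6 exon reads in sham and 13, 22 and 17 in ONC. Every ONC sample was above every sham sample, at an RPKM of 0.0483 ± 0.0126 (SD, n = 3) in sham and 0.140 ± 0.0378 (SD, n = 3) in ONC. Its log2 fold change without the filter was 1.38 (SE 0.85, adjusted p = 0.466, edgeR).

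Among 51 other peptide precursor genes in the tables, 19 passed the filter and 13 had no exon read in any sample. By edgeR 1 of the 19 had an unadjusted p under 0.05. None of the 19 was called by edgeR, beside 1.66% of all genes tested, and none by DESeq2 or limma. At that share the absence of calls says little of these 19. Their median log2 fold change was 0.091, with a range from -1.34 to 0.83. The precursors with the highest RPKM were Tac2, which encodes neurokinin B, Nucb2, which encodes nesfatin, and Pomc, the precursor of melanocortins and endorphin. Tac2, the sister gene of Tac1, was at 18.9 ± 3.0 RPKM (SD, n = 3) in sham and 23.0 ± 0.864 (SD, n = 3) in ONC, a log2 fold change of 0.16 (SE 0.11). Nucb2 was at 0.16 (SE 0.10) and Pomc at -0.08 (SE 0.23).

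Genes of the vesicles that carry these peptides were read from 4 further lists of the same kind. Of 7 granins and related vesicle cargo genes, whose median log2 fold change was -0.031, 1 was called, beside 1.66% of all genes tested. This was Vgf, whose product is itself cut into secreted peptides. Vgf had 729, 851 and 781 exon reads in sham and 1791, 1555 and 1446 in ONC, with no overlap. Its mean RPKM was 12.9 ± 0.840 (SD, n = 3) in sham and 24.7 ± 2.95 (SD, n = 3) in ONC, a log2 fold change of 0.81 (SE 0.09, adjusted p = 1.15e-05, edgeR), and all alternatives called it. Scg2, which encodes secretogranin II, was under the FDR but not over the fold threshold, at 0.18 (SE 0.06, adjusted p = 0.0805, edgeR). With Vgf, 2 of 7 were thus under the FDR, beside 6.09% of all genes tested. Scg5 and Chgb, which encode the granins 7B2 and chromogranin B, were at -0.031 (SE 0.06) and -0.0020 (SE 0.06), and their sign turned with the scaling.

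Of 12 genes of dense core vesicle release, whose median log2 fold change was -0.22, 1 was called, beside 1.66% of all genes tested. This was Ptprn, which encodes a membrane protein of these vesicles. Ptprn had 2434, 2087 and 2199 exon reads in sham and 4596, 4031 and 4092 in ONC, with no overlap. The RPKM was 26.7 ± 2.87 (SD, n = 3) and 47.3 ± 3.60 (SD, n = 3), a log2 fold change of 0.71 (SE 0.08, adjusted p = 7.60e-06, edgeR), and all alternatives called it. With Ptprn, 6 of the 12 were under the FDR, beside 6.09% of all genes tested, and 5 of them missed the fold threshold. The vesicle protein Syt4 was higher, at 0.24 (SE 0.06), and 4 were lower. These were the vesicle GTPase Rab3a at -0.35 (SE 0.06), the membrane fusion protein Snap25 at -0.25 (SE 0.05), the related vesicle protein Ptprn2 at -0.23 (SE 0.07) and Syt7 at -0.22 (SE 0.07). Ptprn2, Syt4 and Syt7 were named after their values were seen.

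None of the 11 peptide processing enzymes tested was called by edgeR, DESeq2 or limma, beside 1.66% of all genes tested by edgeR. At that share the absence of calls says little. The median log2 fold change was -0.0097, and 2 had an unadjusted edgeR p under 0.05. Both were under the FDR but not over the fold threshold, which is 2 of 11 beside 6.09% of all genes tested. Ctsl, a lysosomal protease that can also cut peptide precursors, was higher at 0.33 (SE 0.06, adjusted p = 0.00247, edgeR). Pcsk2, the proprotein convertase of many neuropeptides, which was named after its values were seen, was lower at -0.44 (SE 0.10, adjusted p = 0.0172, edgeR). Cpe, which trims the cut peptides and was the most abundant gene of the list, was at 649.5 ± 16.3 RPKM (SD, n = 3) in sham and 722 ± 32.5 (SD, n = 3) in ONC, a log2 fold change of 0.031 (SE 0.055). Qpct, which closes the first glutamine of some peptides into a ring, was at 0.028 (SE 0.08). None of the 10 peptide breakdown enzymes tested was called by any of the 3 tools, again beside 1.66%, which says as little. By edgeR 3 had an unadjusted p under 0.05, and 1 of them was under the FDR, again beside 6.09%. This was Lnpep, a membrane aminopeptidase, at -0.38 (SE 0.10, adjusted p = 0.0498, edgeR). The most abundant breakdown enzymes, the aminopeptidase Npepps and the insulin-degrading enzyme Ide, were at -0.14 (SE 0.06) and -0.15 (SE 0.06).

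**Figure D4:**
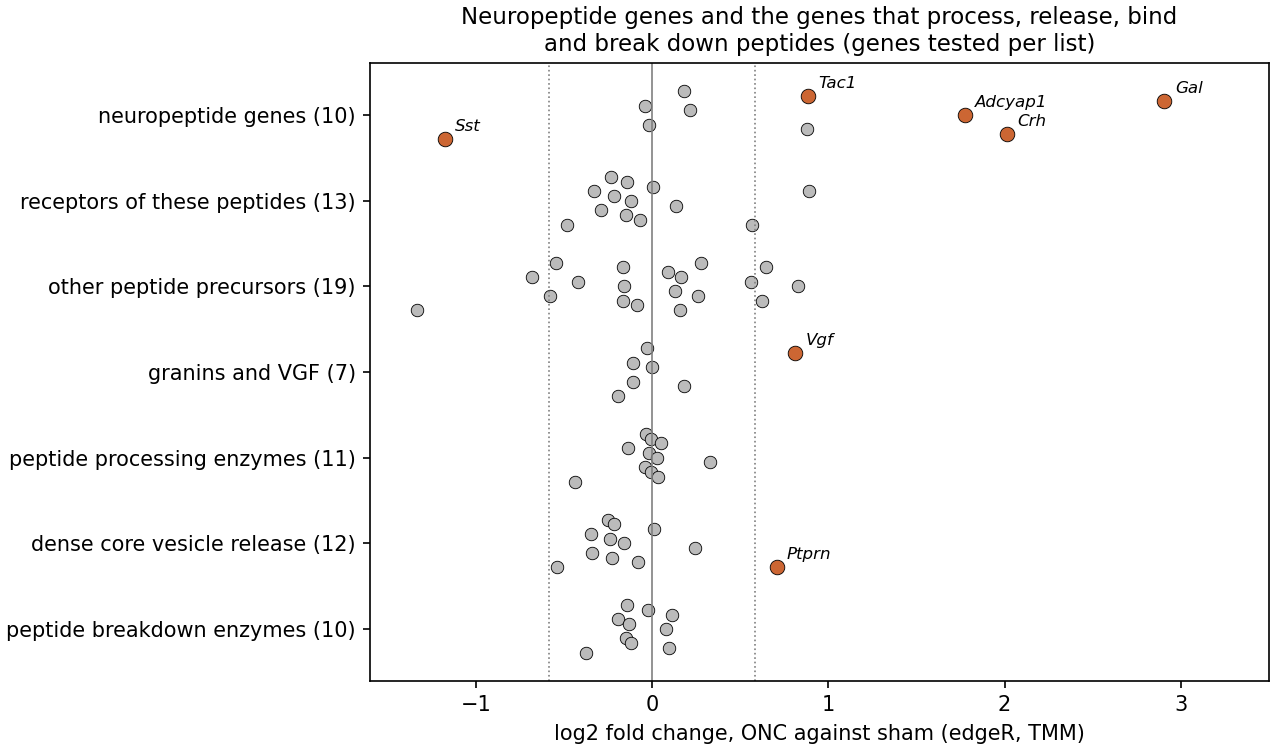
Log2 fold change of every tested gene in the 10 neuropeptide genes and in the lists of receptors, other precursors, granins, processing, release and breakdown genes, 1 point per gene, with called genes in orange and named and the fold change threshold as dotted lines. Outside the 10, the called genes were Vgf at 0.81 and Ptprn at 0.71.

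The genes whose pattern was most like that of Gal and Adcyap1 were found by Pearson's r of log2 normalized CPM over the 6 samples, among the genes tested. All 6 samples enter each r, so a difference between the groups sets much of it, and no p was computed. For Gal the nearest were Arl14ep, Chfr and Tspyl2 at r of 0.997, 0.995 and 0.994, and 78 genes were above 0.95. The likeness lay in the relative spacing of the samples and not in the size of the difference. Their log2 fold changes were 0.20, 0.22 and 0.14 against 2.91 for Gal. For Adcyap1 the nearest were Hmgn2, Gars and Clta at r of 0.999, 0.997 and 0.995, and 151 genes were above 0.95. Hmgn2 encodes a nucleosome binding protein, Gars the glycyl-tRNA synthetase and Clta a clathrin light chain, and their log2 fold changes were 0.59, 0.51 and 0.19 against 1.77.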

How the data were processed

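RNA-seq of pooled mouse retinas was used as the authors deposited it, 1 gene table per sample. The tables hold counts of total and unique reads on exons and on whole genes, which the authors made with CLC Genomics Workbench without normalization, and RPKM values, which the authors computed from total exon reads, exon length and all reads on genes. The submitters' processing notes name mm 9, whereas the positions in the tables overlap the GRCm38.p6 annotation in 99.9% of genes with the same symbol and NCBIM37 in 10.2%. The condition and replicate number were read from the sample titles.

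Total exon reads were fitted by the quasi-likelihood functions glmQLFit and glmQLFTest of edgeR 4.0.16 in R 4.3.3, after TMM normalization and with condition as the only term. Genes entered the fit if their RPKM averaged over 0.3 in sham, ONC or both. The Benjamini-Hochberg adjustment ran over all 13670 genes. The SE was obtained from the log2 fold change and the F statistic, as the former over the root of the latter, and approximate intervals used the normal 95% limits. The p-values measure the spread between pools, and the biological coefficient of variation was 9.17%. Alternatives were DESeq2 size factors, scaling by all reads on genes, the DESeq2 1.42.0 Wald test, limma 3.58.1 on log2(RPKM + 0.1) and log2(RPKM + 1), no filter, a mean RPKM above 1, unique exon reads, a replicate block, no fold change threshold, and leaving out each sample in turn. Correlations used log2(CPM + 0.5), and the fits were tested on simulated data.

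The peptide genes and all lists were chosen with earlier results of these data known. Named are the 10 peptide genes, the called genes and the 3 of highest RPKM of each list, the receptors tested, the 3 genes most like Gal and Adcyap1, and marker genes. Vipr1, other receptors below the filter, Pcsk2, Ptprn2, Syt4 and Syt7 were added after their values were seen. One gene that this rule names is not reported here. Group means of RPKM in 1 table, and the authors' other pooled columns, were not used. Promoter sequences are from RefSeq on GRCm38.p6.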

Additional observations from a re-analysis of the deposited data

How the results depend on the processing

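The number of genes called among all tested was 350 with scaling by all reads on genes, 147 with limma on log2(RPKM + 1), 833 without the fold change threshold and 153 to 353 when 1 sample was left out (353 without ONC replicate 1), against 227. Of the 10 peptide genes, 3 to 6 were called without single samples, with 3 without sham replicate 3 or ONC replicate 3. Without the fold change threshold 2 granins, 2 processing enzymes, 6 release genes and 1 breakdown enzyme passed. With scaling by all reads on genes 1 gene of the receptor list was called, the binding protein gene Crhbp, and no receptor. Without single samples the count was 0 to 1 for the receptor list (Crhbp without ONC replicate 1) and 0 to 1 for processing enzymes, where Pcsk2 was called without ONC replicate 1. Why these counts moved was not tested.

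The sign of some small log2 fold changes turned. With scaling by all reads on genes, limma on log2(RPKM + 0.1) and limma on log2(RPKM + 1), respectively, Pomc was at 0.044, 0.031 and 0.028, Scg5 at 0.093, 0.091 and 0.090, Chgb at 0.12, 0.12 and 0.12, Adcyap1r1 at 0.0023, 0.021 and 0.0073, Cckbr at 0.055, 0.049 and 0.036, Vip at 0.10, 0.11 and 0.094 and Cck at 0.081, 0.081 and 0.074, and these scalings share the shift of all genes. Ogfr was at -0.0020 with DESeq2 size factors and with DESeq2, -0.0011 with a mean RPKM above 1 and -0.0015 with unique reads. Without single samples the ranges that crossed 0 were -0.29 to 0.029 for Adcyap1r1, -0.078 to 0.036 for Chgb, -0.025 to 0.055 for Cpe, -0.47 to 0.097 for Crhr2, -0.45 to 0.065 for Npy1r, -0.042 to 0.072 for Ogfr, -0.26 to 0.068 for Pomc, -0.0062 to 0.083 for Qpct, -0.082 to 0.014 for Scg5, -0.18 to 0.35 for Tacr1, -0.099 to 0.024 for Cck and -0.086 to 0.031 for Vip.

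The labels give ONC and sham samples the same replicate numbers. Deviations of same-numbered samples from their group means correlated at -0.059, -0.025 and 0.0070 over genes, so the numbers gave no sign of pairing, and the study does not describe pairs. With the replicate block 222 genes were called, with 5 of the 10 peptide genes, 1 granin, 1 release gene and no receptor, other precursor, processing or breakdown enzyme. The block gave log2 fold changes of 2.85 for Gal and 1.77 for Adcyap1.

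With 3 pools a group, Gal and Crh in sham rest on 5 to 19 reads a sample, so the size of their differences is known less well than that of Adcyap1 or Tac1.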
